A study of Bos taurus with 12 samples.

Results

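The genes followed here are an interferon gene of the bovine type I cluster, LOC616977, and 8 genes that receive or answer an interferon signal: the receptor chains IFNAR1 and IFNAR2, the signal transducer STAT2, the transcription factors IRF1 and IRF2, and the response genes ISG15, MX1 and MX2. A gene was taken where a probe set of the array carried its symbol and no other, and all 9 genes were found, out of 18087 genes with such a probe set. Each had a single probe set. LOC616977 was chosen by its higher signal in VITRO than in VIVO embryos in these same data, so its levels are described without a test in every comparison that uses those arrays, and the question put to the other 8 genes was whether they followed it.

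RNA of bovine blastocysts from 4 groups was hybridised to 12 Affymetrix Bovine Gene 1.0 ST arrays, 3 per group, and every array took a separate pool of embryos collected on day 7. VIVO embryos were flushed from superovulated Simmental heifers and served as the control. VITRO embryos were matured, fertilised and cultured outside the animal in synthetic oviduct fluid with serum albumin, from slaughterhouse oocytes. IFOT-M embryos came from slaughterhouse oocytes matured in vitro and then placed by intrafollicular oocyte transfer (IFOT) into a preovulatory follicle, and IFOT-IM embryos from immature slaughterhouse oocytes placed into a dominant follicle, so that in both groups fertilisation and early development took place in a recipient. Semen of the same sire was used throughout, and only expanded blastocysts of the best grade were pooled, 15 per pool in the methods and up to 20 in the design text. A flushed IFOT pool may also have held the recipient's own embryo. The VIVO oocytes came from another source than those of the other groups, so each comparison with VIVO also compares oocyte sources.

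Type I interferons, which include the alpha, beta, omega and, in ruminants, tau forms, bind a receptor made of IFNAR1 and IFNAR2. The kinases JAK1 and TYK2 then activate STAT2, which acts with IRF9 to switch on interferon-stimulated genes such as ISG15 and the MX genes. In cattle the trophectoderm secretes interferon tau, the signal by which the mother recognises the pregnancy, and the same response genes are known markers of that signal in the uterus.

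Values are log2 signals as deposited, and a probe set was called higher or lower where its FDR in limma was below 0.1 at any fold change. The arrays did not share one distribution. Their medians lay between 1.75 and 1.78 in VIVO, 1.84 and 1.86 in IFOT-M, 1.86 and 1.93 in IFOT-IM, and 1.95 and 1.97 in VITRO, and the median difference of VITRO from VIVO over all probe sets tested was 0.13, against 0.003 once the arrays were brought to one distribution by quantile normalization. The shift went with level. When the probe sets were ranked by mean signal and split into 10 level bins of equal size, the median difference of VITRO from VIVO lay between 0.17 and 0.26 in the 6 lowest bins and was -0.66 in the highest. LOC616977 lay in the highest bin and the other 8 genes in the 6 lowest. In such pools fewer cells of a type and less RNA per cell cannot be told apart. The mean of 8 trophectoderm markers lay between 4.54 and 4.84 in VIVO and between 3.96 and 4.20 in VITRO, that of 5 inner cell mass markers between 4.80 and 5.07 against 4.28 and 4.59, and that of 5 hypoblast markers between 4.86 and 4.94 against 4.63 and 4.70. The median difference of the trophectoderm markers in VITRO was -0.68, or -0.38 with quantile and -0.18 with cyclic loess normalization. That of the inner cell mass markers was -1.05, -0.53 and -0.40, and of the hypoblast markers -0.36, -0.09 and 0.10. Each list also held 1 gene called higher: EOMES (0.34, FDR 0.068), NANOG (1.12, FDR 0.000648) and GATA4 (0.38, FDR 0.0609), beside 7, 3 and 3 lower. Of all probe sets 25.1% were called higher in VITRO than in VIVO and 22.7% lower. With quantile normalization NANOG stayed called (1.51, FDR 0.000335), and EOMES and GATA4 did not. The lower counts were then 4, 3 and 1, where 12.9% of all probe sets were called higher and 16.6% lower.

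LOC616977, annotated as interferon beta-2 in the study's supplement, lies on chromosome 8 among the type I interferon genes. Its signal was 4.84, 4.84 and 5.02 in the VIVO pools and 6.84, 6.73 and 6.84 in the VITRO pools. The IFOT-M pools gave 6.17, 5.64 and 5.89, and the IFOT-IM pools 5.64, 6.79 and 6.14. No pool of the other groups overlapped with VIVO, and VITRO lay above IFOT-M, while 1 IFOT-IM pool reached the VITRO range. The order of the group means was VIVO 4.90, IFOT-M 5.90, IFOT-IM 6.19 and VITRO 6.81, and IFOT-M and IFOT-IM, neighbours in this order, overlapped. The difference from VIVO was 1.91 (SE 0.23) in VITRO, a 3.75-fold higher signal, 1.29 (SE 0.23) in IFOT-IM and 1.00 (SE 0.23) in IFOT-M. This ran against the shift of its own level bin, and with quantile normalization the VITRO difference was 2.39. The comparison of IFOT-M with IFOT-IM, which its choice did not use, gave -0.29 (SE 0.23, FDR 0.791).

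**Figure D1:**
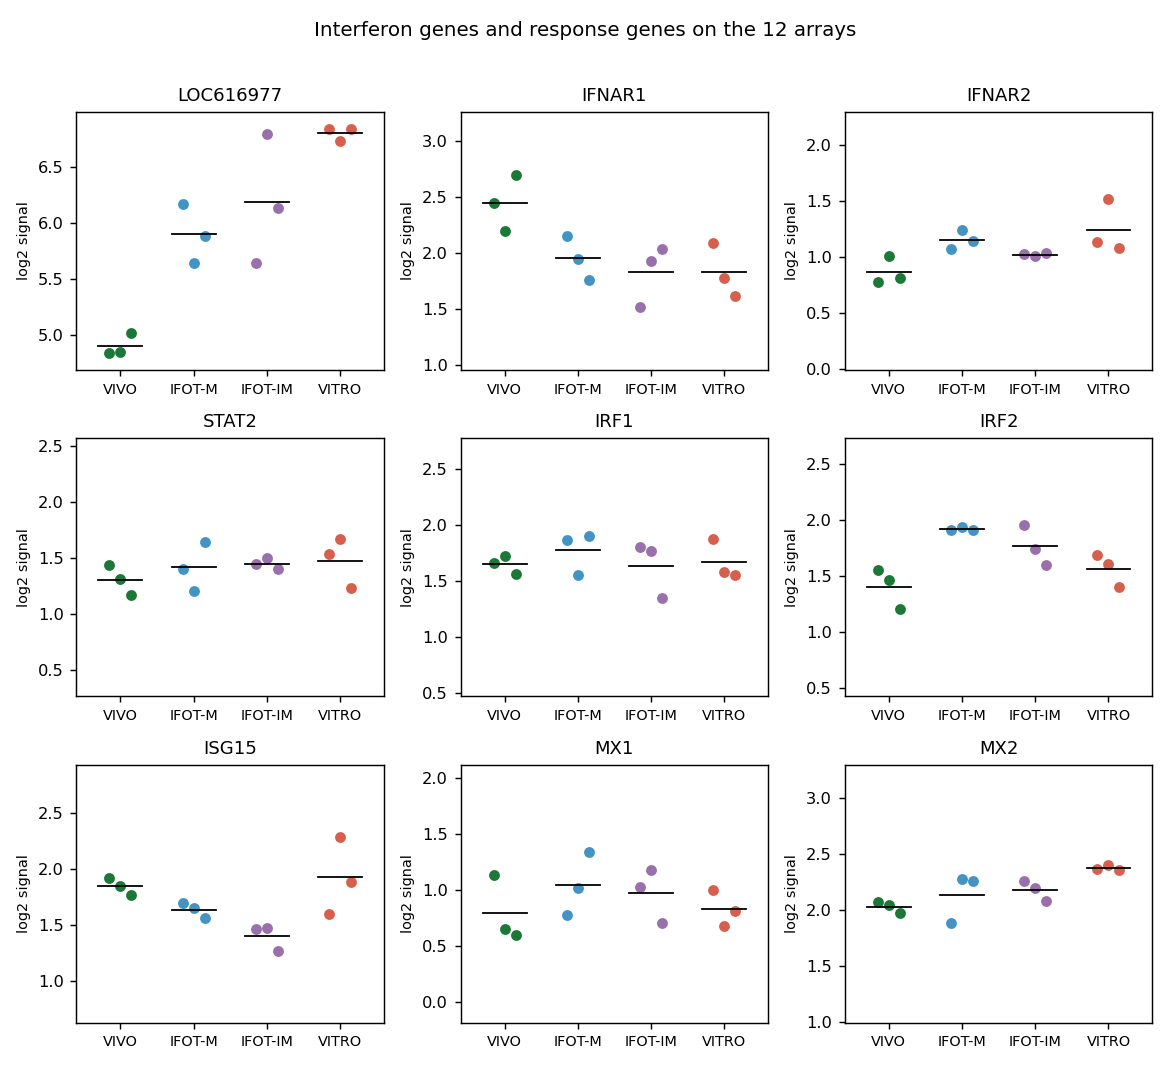
Log2 signal (y axis) of the 9 genes on the 12 arrays, by group (x axis). Points are single pools, black lines are group means of 3 pools, and every panel spans the same number of log2 units around its own centre, since levels of different probe sets are not comparable. LOC616977 is lowest in all 3 VIVO pools and IFNAR1 highest, while MX1, IRF1 and STAT2 overlap in all groups.

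The receptor chains moved in opposite directions. IFNAR1, the chain that carries TYK2, gave 2.45, 2.20 and 2.70 in VIVO, 2.16, 1.95 and 1.76 in IFOT-M, 1.52, 1.93 and 2.04 in IFOT-IM, and 2.10, 1.78 and 1.62 in VITRO. All 9 pools with oocytes from the slaughterhouse lay below all 3 VIVO pools. IFNAR1 was 1.53-fold lower in VITRO (log2 fold change -0.62, SE 0.18, FDR 0.0203) and 1.54-fold lower in IFOT-IM (-0.62, SE 0.18, FDR 0.0428). In IFOT-M the difference was -0.49 (SE 0.18, FDR 0.145) and missed the threshold. The fall in VITRO opposed the 0.17 of its level bin and was larger with quantile normalization (-0.73, FDR 0.0161). The call in IFOT-IM ended without IFOT-IM replicate 1 (FDR 0.168) and without VIVO replicate 3 (FDR 0.163).

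IFNAR2, which binds interferon with high affinity and carries JAK1, gave 0.77, 1.01 and 0.81 in VIVO and 1.13, 1.51 and 1.08 in VITRO. The pools did not overlap, and IFNAR2 was higher in VITRO by 0.38 (SE 0.13, FDR 0.042). The median of all probe sets in its level bin was 0.24, and with quantile normalization the difference was 0.15 (FDR 0.445). Without VITRO replicate 2, the highest pool, it was 0.24 (FDR 0.152), and the call also ended without VIVO replicate 1 (FDR 0.121) or 3 (FDR 0.111). In IFOT-M the pools gave 1.07, 1.24 and 1.14, above VIVO without overlap (0.29, SE 0.13, FDR 0.256), and in IFOT-IM 1.02, 1.00 and 1.04, which overlapped with VIVO (0.16, SE 0.13, FDR 0.469).

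STAT2, which carries the signal from the receptor to the nucleus, overlapped with VIVO in every group. It gave 1.43, 1.32 and 1.17 in VIVO, 1.40, 1.21 and 1.64 in IFOT-M, 1.44, 1.50 and 1.40 in IFOT-IM, and 1.54, 1.67 and 1.23 in VITRO. Its difference in VITRO was 0.17 (95% interval -0.15 to 0.49, FDR 0.366), and the direction turned with quantile normalization (-0.06).

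IRF1 activates interferon and interferon-stimulated genes, and IRF2 competes with it for the same DNA element. IRF1 gave 1.67, 1.72 and 1.57 in VIVO, 1.87, 1.56 and 1.91 in IFOT-M, 1.80, 1.77 and 1.35 in IFOT-IM, and 1.88, 1.58 and 1.56 in VITRO, with overlap in all groups. Its difference in VITRO was 0.02 (95% interval -0.31 to 0.36, FDR 0.916). The array table lists its symbol under 2 gene IDs. IRF2 behaved otherwise, with 1.55, 1.46 and 1.20 in VIVO and 1.91, 1.94 and 1.91 in IFOT-M. The IFOT-M pools lay close together above all VIVO pools, and IRF2 was 1.43-fold higher there (0.51, SE 0.14, FDR 0.0441). In IFOT-IM the pools gave 1.95, 1.74 and 1.60, also above VIVO (0.36, SE 0.14, FDR 0.103), and in VITRO 1.69, 1.61 and 1.40, which overlapped (0.16, SE 0.14, FDR 0.362). The call in IFOT-M ended without any 1 of its own pools (FDR from 0.108 to 0.128) and without VIVO replicate 2 (FDR 0.103) or 3 (FDR 0.18). VITRO lay below IFOT-M for IRF2 by 0.35 (SE 0.14, FDR 0.105), and by 0.48 with quantile normalization (FDR 0.034).

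Of the response genes, ISG15, a ubiquitin-like protein attached to other proteins after interferon, gave 1.92, 1.84 and 1.76 in VIVO and 1.60, 2.29 and 1.88 in VITRO. VITRO replicate 2 was the highest of all arrays and replicate 1 lay below VIVO, and the difference was 0.08 (95% interval -0.26 to 0.42, FDR 0.702), or -0.10 without replicate 2. The IFOT-M pools gave 1.70, 1.65 and 1.56 and the IFOT-IM pools 1.46, 1.47 and 1.27, all below VIVO. ISG15 was lower in IFOT-IM by 0.44 (SE 0.16, FDR 0.083), while IFOT-M differed by -0.21 (SE 0.16, FDR 0.51). Leaving out any 1 array of VIVO, IFOT-IM or IFOT-M raised the FDR in IFOT-IM to between 0.103 and 0.192, so this call rested on all of them. VITRO exceeded IFOT-IM by 0.52 (SE 0.16, FDR 0.0799), and by 0.46 with quantile normalization (FDR 0.143), and this call held without VITRO replicate 1 or IFOT-IM replicate 1 and ended without any 1 of the other arrays.

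MX1, an antiviral GTPase, was in the lowest level bin. It gave 1.13, 0.66 and 0.60 in VIVO, 0.78, 1.02 and 1.34 in IFOT-M, 1.03, 1.18 and 0.71 in IFOT-IM, and 1.00, 0.68 and 0.82 in VITRO. All groups overlapped, and its difference in VITRO was 0.04 (95% interval -0.37 to 0.45, FDR 0.883), or -0.17 with quantile normalization. MX2, its neighbour on chromosome 1, gave 2.07, 2.04 and 1.97 in VIVO and 2.36, 2.40 and 2.36 in VITRO. These pools did not overlap, and MX2 was 1.27-fold higher in VITRO (0.35, SE 0.13, FDR 0.0452). The median of its level bin was 0.17, and with quantile normalization the difference was 0.23 (FDR 0.183). The call also ended without VIVO replicate 3 (FDR 0.123). In IFOT-M MX2 gave 1.88, 2.27 and 2.25 (0.11, SE 0.13, FDR 0.681) and in IFOT-IM 2.26, 2.20 and 2.08 (0.15, SE 0.13, FDR 0.451).

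**Figure D2:**
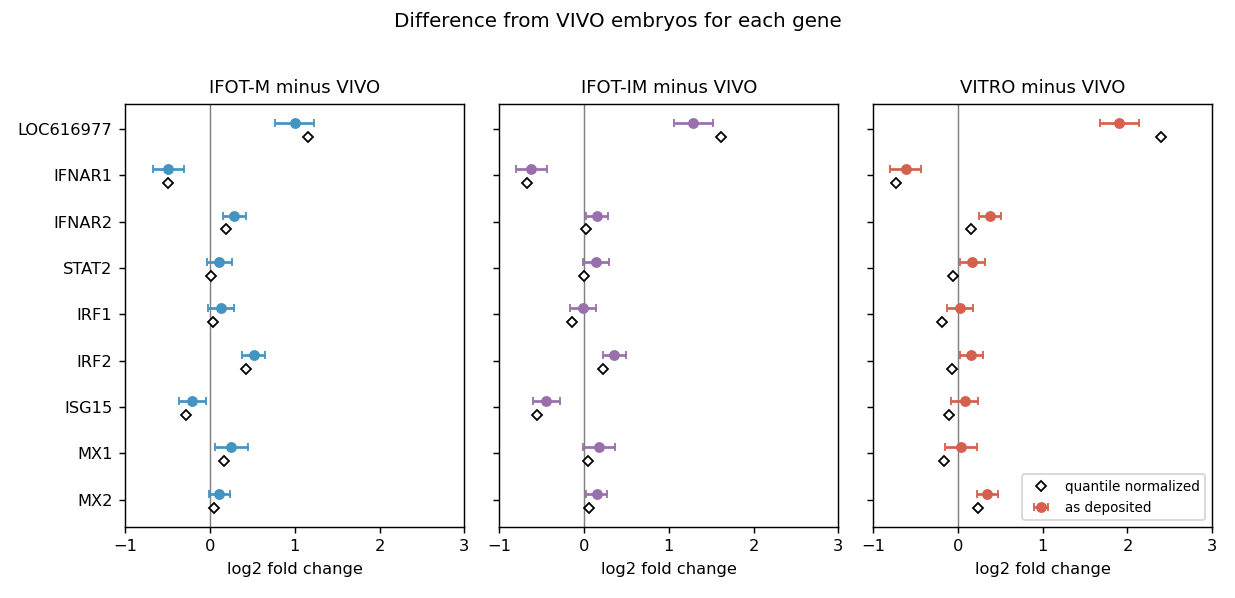
Difference of each group from VIVO in log2 fold change (x axis) for the 9 genes (y axis), one panel per group. Filled points are the deposited values with the SE of the fit as bars, and open diamonds are the same differences with quantile normalization. LOC616977 stands to the right in every panel, 1.91 in VITRO, and IFNAR1 to the left, -0.62 in VITRO.

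Counted together, 2 of the 8 genes were called higher and 1 lower in VITRO compared to VIVO embryos, with a median difference of 0.12. Of all probe sets 25.1% were called higher and 22.7% lower in that comparison. With quantile normalization 1 gene was called, IFNAR1, where 12.9% of all probe sets were called higher and 16.6% lower. In IFOT-M 1 gene was called higher and none lower (3.21% and 6.87% of all probe sets), and in IFOT-IM none higher and 2 lower (7.95% and 12.6%). The comparisons with VIVO share the VIVO arrays and are therefore not independent of each other. Between VITRO and IFOT-M 0 of the 8 genes were called in limma, with 1 gene at an unadjusted p below 0.05. In the same fit 8.38% of all probe sets were called higher in VITRO and 12.9% lower. With either quantile or cyclic loess normalization 1 gene was called, IRF2, and the share of all probe sets was not counted there. Between VITRO and IFOT-IM the call was ISG15 (2.81% of all higher and 5.86% lower). Between IFOT-M and IFOT-IM 0 of the 8 genes were called in limma, 0 at an unadjusted p below 0.05 and 0 under every alternative, and 0% of all probe sets were called higher and 0% lower, although 1855 had an unadjusted p below 0.05.

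The interferon ligand list held 30 symbols, and 9 of its genes had a probe set of their own. Further genes of the type I cluster had one too and are only counted below. LOC618859, annotated as interferon omega-1 in the study's supplement, gave 2.10, 1.52 and 1.67 in VIVO and 3.37, 2.75 and 2.92 in VITRO. The pools did not overlap, and it was 2.38-fold higher in VITRO (1.25, SE 0.24, FDR 0.00182), with 1.24 after quantile normalization (FDR 0.00522). The list was written with earlier results of these data known. Besides LOC616977 it holds no other LOC-named gene of the cluster, so this FDR cannot be taken as free of that choice. It was also higher in VITRO than in IFOT-M (1.02, SE 0.24, FDR 0.0165) and IFOT-IM (0.76, SE 0.24, FDR 0.0931), while IFOT-IM differed from VIVO by 0.49 (SE 0.24, FDR 0.202) and IFOT-M by 0.23 (SE 0.24, FDR 0.643). IFNW1, an omega gene, was higher in VITRO by 0.32 (SE 0.13, FDR 0.0678), and by 0.10 with quantile normalization (FDR 0.634). IFNAH, an alpha gene, differed by 0.57 (SE 0.28, FDR 0.124), IFN-TAU by 0.37 (SE 0.31, FDR 0.342), IFNK by 0.18 (SE 0.14, FDR 0.295) and IFNL3, of the type III group, by -0.37 (SE 0.19, FDR 0.144). IFN-TAU lay in the lowest level bin and gave 1.05, 0.66 and 0.50 in VIVO and 1.84, 0.70 and 0.79 in VITRO. Probe sets shared by several tau genes, given at the end, disagreed in direction. The probe sets of IFNB1 and IFNG were among the 2358 with the lowest mean and were not tested. In all, 2 of these 6 genes, LOC618859 and IFNW1, were called higher and 0 lower in VITRO, with LOC616977 not counted, beside 25.1% and 22.7% of all probe sets. The choice of LOC618859 limits this count in the same way. The counts were 1 and 1 with quantile normalization, beside 12.9% and 16.6% of all probe sets, and 2 and 1 with cyclic loess normalization. Without VITRO replicate 2 or 3, or VIVO replicate 1 or 2, the count of higher genes was 1, and without IFOT-IM replicate 2 or 3 a lower gene was added. In limma 0 of the 6 were called in IFOT-M (0 at an unadjusted p below 0.05) and 0 in IFOT-IM (1 at an unadjusted p below 0.05), with the deposited values as with quantile or cyclic loess normalization.

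By the gene order of the ARS-UCD2.0 annotation, 53 protein-coding genes lie from IFNE to IFNB1 on chromosome 8, and 20 of them were tested. Besides LOC616977, 4 of the other 19 were called higher and 2 lower in VITRO, with a median of 0.32 and a range from -0.80 to 1.25, and with quantile normalization 3 were higher and 0 lower. One of the 2 lower genes was KLHL9, which is no interferon gene. In IFOT-M 0 of the 19 were called in limma, 0 at an unadjusted p below 0.05 and 0 with quantile normalization, and in IFOT-IM 1 was higher and 1 lower, but 0 and 0 with quantile normalization. The VITRO counts, 4 and 2 of 19, lie below the 25.1% and 22.7% of all probe sets.

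Calls among receptors and kinases of the pathway went in both directions. In VITRO 1 of 12 was called higher and 3 lower, with a median of -0.03, beside 25.1% and 22.7% of all probe sets. With quantile normalization 0 were higher and 2 lower, beside 12.9% and 16.6% of all probe sets. The lower genes were IFNAR1, STAT3 and IL10RB, a chain shared by the receptors of interleukin-10 and type III interferons, and the higher one IFNAR2. STAT3, which carries cytokine signals, fell by 0.69 (SE 0.13, FDR 0.00132), a fall near the -0.66 of its level bin that was -0.12 with quantile normalization (FDR 0.589). IL10RB fell by 0.56 (SE 0.23, FDR 0.0733), although its VITRO and VIVO pools overlapped, and the median of its level bin was -0.23. JAK1 differed by -0.27 (SE 0.16, FDR 0.198), TYK2 by 0.09 (SE 0.18, FDR 0.704) and IRF9 by 0.19 (SE 0.21, FDR 0.468), the last 3 named for their place in the pathway. The list of the IRF family also held IRF2BPL and IRF2BP2, which are binding proteins of IRF2 and not IRF factors themselves. Of its 9 genes 1 was higher and 2 lower, beside the same 25.1% and 22.7% of all probe sets. These were IRF4 (0.50, SE 0.19, FDR 0.0547), IRF2BPL (-0.53, SE 0.22, FDR 0.0765) and IRF3, which induces interferon genes once phosphorylated (-0.49, SE 0.18, FDR 0.0477). With quantile or cyclic loess normalization 0 of the 9 were higher and 1 lower, and the calls of IRF4 (FDR 0.275) and IRF3 (FDR 0.183) ended with quantile normalization. The IRF counts also rested on single pools: without VITRO replicate 1 there were 0 higher and 0 lower, without VITRO replicate 2, VIVO replicate 1 or VIVO replicate 2 there were 0 higher and 1 lower, and without VIVO replicate 3 there were 0 lower.

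Genes that sense nucleic acids and induce interferon were called higher in VITRO in 2 of 20 cases and lower in 2, below the 25.1% and 22.7% of all probe sets. There were 4 higher without VITRO replicate 1 and 1 higher without VIVO replicate 3. TBK1, the kinase that phosphorylates IRF3, gave 2.64, 2.15 and 2.23 in VIVO and 1.67, 1.64 and 1.67 in VITRO. Its pools did not overlap, and it was lower by 0.68 (SE 0.14, FDR 0.00223). TRAF6, an adaptor ligase, was lower by 0.73 (SE 0.15, FDR 0.00221), and both stayed called with quantile normalization (TBK1 -0.83, FDR 0.000654, and TRAF6 -0.80, FDR 0.00209). ZBP1, a sensor of Z-form nucleic acid, was higher by 0.63 (SE 0.17, FDR 0.0132), and TICAM1, the adaptor of TLR3, by 0.34 (SE 0.12, FDR 0.0374). With quantile normalization the counts were 1 higher and 3 lower, beside 12.9% and 16.6% of all probe sets. ZBP1 stayed called (0.49, FDR 0.0656) and TICAM1 did not (0.14, FDR 0.429). TBK1 was also lower in IFOT-M (-0.50, SE 0.14, FDR 0.0463) and IFOT-IM (-0.51, SE 0.14, FDR 0.0264).

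Of 44 interferon response genes tested, 14 were called higher and 4 lower in VITRO, beside 25.1% and 22.7% of all probe sets, with a median of 0.17 against 0.13 over all probe sets. All 14 higher genes were among the 35 that lay in the 6 lowest level bins, where the median of all probe sets rose too, and all 4 lower genes were among those above. PLAC8A was added to the list once the table had been read. Its FDRs and its place in the lower counts of the 3 groups cannot be taken as free of that choice. It gave 8.43, 8.41 and 8.44 in VIVO and 7.23, 7.29 and 7.33 in VITRO, and fell by 1.14 (SE 0.11, FDR 3.02e-05). It was lower in IFOT-M (-1.27, SE 0.11, FDR 9.5e-05) and IFOT-IM (-1.40, SE 0.11, FDR 2.61e-05) as well, and the 9 pools lay far below VIVO. SAMHD1, an enzyme that depletes nucleotides against viruses, fell in VITRO by 1.01 (SE 0.11, FDR 5.52e-05) and PNPT1, a mitochondrial ribonuclease, by 0.80 (SE 0.15, FDR 0.00144). UBA7, the enzyme that activates ISG15 for conjugation, gave 1.14, 1.02 and 1.36 in VIVO and 1.68, 1.77 and 2.27 in VITRO, and was higher by 0.73 (SE 0.18, FDR 0.00841).

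The split of the response genes turned with the scaling, as did that of all probe sets, from 25.1% higher and 22.7% lower to 12.9% and 16.6% with quantile normalization. With quantile normalization 4 of the 44 were called higher and 8 lower, and with cyclic loess normalization 5 and 7. PLAC8A (-0.80, FDR 0.000179), SAMHD1 (-0.43, FDR 0.0126), PNPT1 (-0.35, FDR 0.0908) and UBA7 (0.52, FDR 0.0657) kept their direction and call. Leaving out 1 array gave between 7 and 15 higher and between 4 and 5 lower, with 7 higher without VIVO replicate 2 and 9 without VIVO replicate 3. In IFOT-M 1 was called higher and 3 lower, with a median of 0.05, where 3.21% of all probe sets were called higher and 6.87% lower. In IFOT-IM 5 were higher and 6 lower, with a median of 0.12, where 7.95% of all probe sets were called higher and 12.6% lower. With quantile normalization the IFOT-IM counts were 1 and 4, with a median of 0.02, and with cyclic loess normalization 2 and 4. Without VIVO replicate 3 the IFOT-IM counts were 0 higher and 2 lower, without VIVO replicate 1 or IFOT-IM replicate 1 they were 1 and 3, and the count of higher genes was 1 without VIVO replicate 2, 2 without IFOT-M replicate 2, and 3 without IFOT-IM replicate 2 or IFOT-M replicate 1 or 3. Markers of leukocytes, cumulus and granulosa cells and oocytes also read higher in VITRO. The mean of 7 oviduct and uterus epithelium markers overlapped, between 1.70 and 2.03 in VIVO and between 1.94 and 1.97 in VITRO. The mean of the 10 leukocyte markers lay between 1.57 and 1.69 in VIVO and between 1.86 and 1.94 in VITRO, 5 of the 10 were called higher in VITRO, beside 25.1% of all probe sets, and 4 with quantile normalization, beside 12.9%. All 10 lay in the 7 lowest level bins. The mean of 8 cumulus and granulosa markers lay between 1.10 and 1.17 in VIVO and between 1.31 and 1.38 in VITRO, and that of 7 oocyte markers between 1.60 and 1.72 against 1.73 and 1.96. Of these 1 of 8 and 2 of 7 were called higher. With quantile normalization 0 were called in either list, with medians of -0.04 and 0.07. PTPRC, the defining leukocyte marker, lay between 1.03 and 1.21 in VIVO and between 1.21 and 1.47 in VITRO, in level bin 3 counted from the lowest. Without a call of presence these values do not show whether leukocyte RNA was there. The part of such cells in these values was not tested.

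**Figure D3:**
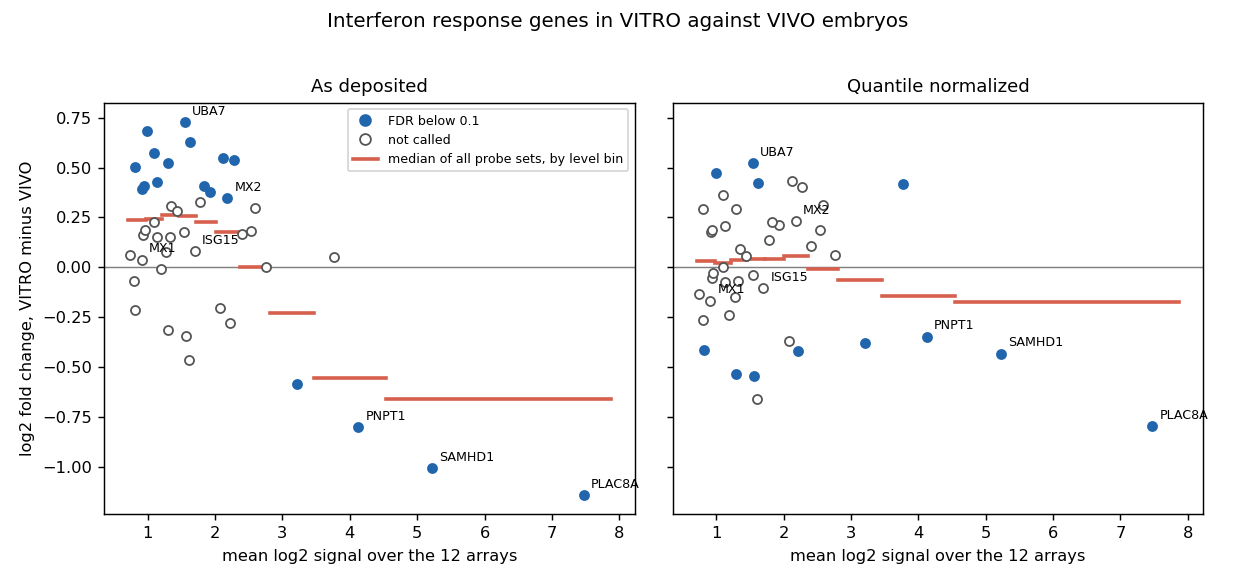
Difference of VITRO from VIVO in log2 fold change (y axis) against the mean log2 signal over the 12 arrays (x axis) for the 44 response genes, as deposited (left) and with quantile normalization (right). Blue points have an FDR below 0.1, open points do not, and red lines are the medians of all probe sets in each level bin. On the left 14 genes are called higher, all at low level, and 4 lower, all at higher level, and on the right 4 and 8.

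Negative regulators of the pathway were called lower in 4 of 12 cases and higher in 1, with a median of -0.23, and the same counts were found with quantile normalization, while without VITRO replicate 1 or 3 or IFOT-IM replicate 1 a second gene was higher. Of all probe sets 22.7% were called lower and 25.1% higher, or 16.6% and 12.9% with quantile normalization. With the deposited values all 4 lower genes lay above the 6 lowest level bins, PIAS1 and PIAS2 in the highest, where the median was -0.66. PIAS1, an inhibitor of cytokine signaling, gave 5.51, 5.21 and 5.57 in VIVO and 4.01, 4.20 and 4.13 in VITRO, and fell by 1.31 (SE 0.15, FDR 6.32e-05). It was also lower in IFOT-M (-0.73, SE 0.15, FDR 0.0119) and IFOT-IM (-1.10, SE 0.15, FDR 0.000648). SOCS1, which blocks the kinase activity of the JAK proteins, gave 3.04, 2.88 and 3.28 in VIVO, 1.98, 2.60 and 2.65 in IFOT-M, 1.78, 2.47 and 2.03 in IFOT-IM, and 1.79, 2.47 and 2.33 in VITRO. All 9 pools lay below VIVO, and SOCS1 fell by 0.87 in VITRO (SE 0.24, FDR 0.0124) and by 0.98 in IFOT-IM (SE 0.24, FDR 0.0163), with -0.87 and -0.93 after quantile normalization, and the IFOT-M difference was -0.66 (SE 0.24, FDR 0.127). PIAS2 fell in VITRO by 0.89 (SE 0.11, FDR 0.000128), and SOCS3 was higher by 0.53 (SE 0.15, FDR 0.014).

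Of 13 genes of MHC class I and antigen processing 4 were called higher and 2 lower in VITRO, with a median of 0.24 and 1 lower without VITRO replicate 1. The shares of all probe sets were 25.1% and 22.7%. With quantile normalization 3 of the 13 were higher and 1 lower, beside 12.9% and 16.6% of all probe sets. B2M, the light chain of class I, gave 6.93, 6.94 and 6.94 in VIVO and 5.76, 5.96 and 5.86 in VITRO, and fell by 1.08 (SE 0.12, FDR 5.47e-05), or by 0.61 with quantile normalization (FDR 0.001). BOLA, the heavy chain, gave 3.89, 2.98 and 2.65 in VIVO and 4.27, 3.87 and 4.40 in VITRO, and was higher by 1.01 (SE 0.27, FDR 0.0111), although VIVO replicate 1 overlapped with VITRO. Class I genes share sequence, so the reading of this probe set is uncertain. NLRC5, which switches on class I genes, was higher by 0.58 (SE 0.18, FDR 0.0234), and PSMB10, a subunit of the immunoproteasome, by 0.51 (SE 0.13, FDR 0.00993).

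Over the 12 arrays the genes with a pattern most like LOC616977 were MIR2308 (Pearson r 0.958), ZNF235 (0.955), DEUP1 (0.944), EMX1 (0.941) and MIR491 (0.941). None is in the interferon lists, and the points share the differences between the 4 groups and the shift of the arrays with level. Among the 8 other genes r with LOC616977 was 0.595 for MX2, 0.586 for IFNAR2, 0.411 for STAT2, 0.216 for IRF2, 0.106 for MX1, 0.0798 for IRF1, -0.0465 for ISG15 and -0.573 for IFNAR1. The genes most like ISG15, the response gene with the widest spread of the 3, were PIM2 (0.920), IDI1 (0.916), PIGV (0.900), ACCSL (0.872) and SLC44A4 (0.869).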

How the data were processed

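The arrays were Affymetrix Bovine Gene 1.0 ST, with about 15 ng of total RNA from 1 pool of blastocysts on each and 3 pools per group. The authors processed the raw files by RMA in Expression Console, and the range of the deposited values fits a log2 scale, which no source states. The methods name RMA background correction and quantile normalization. Arrays normalized together in this way have nearly one distribution, whereas the deposited medians differ between groups, and how that step was run is not stated. The table holds 26773 probe sets, of which 18550 carry 1 distinct gene symbol, 595 more than one and 7628 none. Names were given to the first kind alone. The probe sets with the highest mean over the 12 arrays, with the lowest 2358 left out, were fitted with limma 3.58.1 in R 4.3.3 (statmod 1.5.0), all 4 groups together, with 8 residual degrees of freedom. Tests were two-sided with Benjamini-Hochberg adjustment across every probe set tested (FDR), and 95% intervals use the moderated t distribution of limma. The p-values measure the spread between these pools, and 3 arrays per group limit the precision of every value.

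The 9 genes, the gene lists and the rules were chosen with earlier results of these data known. Named genes were the 9 and every gene of the interferon ligand list with a probe set of its own. Up to 4 genes of each list with the largest called difference in VITRO were also named. So were the 5 genes most like LOC616977 and ISG15 over the arrays. Other genes of the chromosome 8 cluster were counted without being named, apart from KLHL9. IFN-TAU and PLAC8A were added to the lists by name once the table had been read. JAK1, TYK2 and IRF9 were named beyond this rule. Alternatives were quantile and cyclic loess normalization, a fit restricted to both groups in question, no filter, a stricter filter, other variance models, array weights, RNA integrity as a covariate, a replicate block, other thresholds and the omission of single arrays. The fit was tested on simulated data beforehand. The raw intensities were not used here, and no call of presence or absence was made.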

Additional observations from a re-analysis of the deposited data

Results flagged for a closer look

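Of 6 probe sets that carry several interferon symbols, and from which no single gene is named, 2 had all VITRO pools above all VIVO pools. A probe set shared by alpha interferon genes gave 3.82, 3.84 and 3.37 in VIVO and 4.65, 4.13 and 5.09 in VITRO, a difference of 0.94 (SE 0.26, FDR 0.0145), and 0.71 in IFOT-IM (SE 0.26, FDR 0.0942). A probe set shared by tau interferon genes gave 3.68, 3.89 and 3.55 in VIVO and 4.07, 3.98 and 4.07 in VITRO, a difference of 0.33 (SE 0.14, FDR 0.0777).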

How the results depend on the processing

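Of the 8 genes other than LOC616977, 3 were called in VITRO against VIVO. The count was 1 with quantile normalization, cyclic loess normalization or RNA integrity as a covariate, and between 1 and 3 when 1 array was left out. In IFOT-M it was 1, but 2 with array weights or a fit of only the 2 groups, and between 0 and 1 without 1 array. In IFOT-IM it was 2, but 1 with the stricter filter (which kept 2 of the 8 genes), the unmoderated model or an FDR below 0.05, and between 0 and 3 without 1 array. VITRO against IFOT-M gave 0, but 1 with quantile or cyclic loess normalization and between 0 and 2 without 1 array. VITRO against IFOT-IM gave 1, but 0 with quantile or cyclic loess normalization, RNA integrity, only the 2 groups, the stricter filter, the unmoderated model or an FDR below 0.05, and between 0 and 1 without 1 array. A fold change above 2 left 0 calls in all comparisons. Directions turned in VITRO with quantile and cyclic loess normalization, respectively, for STAT2 (-0.057 and -0.073), IRF1 (-0.186 and -0.208), IRF2 (-0.064 and -0.073), ISG15 (-0.103 and -0.149) and MX1 (-0.167 and -0.178), and with RNA integrity for IRF1 (-0.001) and MX1 (-0.082). In IFOT-IM STAT2 turned with quantile (-0.002) and cyclic loess normalization (-0.004). Without 1 array the VITRO difference ranged from -0.08 to 0.081 for IRF1, -0.103 to 0.243 for ISG15 and -0.061 to 0.208 for MX1, that of STAT2 in IFOT-M from -0.003 to 0.215 and that of IRF1 in IFOT-IM from -0.092 to 0.136. None of these passed the threshold in either direction. LOC616977 stayed higher in all 3 groups under every alternative, in VITRO from 1.875 to 1.964 without 1 array. Causes were not tested.

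The replicate numbers do not pair the pools: deviations of same-numbered arrays correlated from -0.0831 to 0.1167, above 0.1 in 1 of 18 pairs. With the replicate block 1 gene was called between VITRO and IFOT-M, and the counts of the other comparisons stayed within 1.5 times. A second probe set per gene could not be tried, since no gene had one, and leaving out IRF1 for its doubled gene ID, an alternative added after seeing the data, changed no count.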

Other observations

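A second probe set shared by the same tau interferon genes ran the other way. It gave 5.27, 5.41 and 5.48 in VIVO, 5.12, 4.97 and 4.79 in IFOT-M, 3.59, 4.80 and 4.59 in IFOT-IM, and 3.57, 4.28 and 4.13 in VITRO. It was lower in VITRO by 1.40 (SE 0.27, FDR 0.0019), by 0.89 with quantile normalization (FDR 0.0265), and lower in IFOT-IM by 1.06 (SE 0.27, FDR 0.0219). In IFOT-M the difference was -0.43 (SE 0.27, FDR 0.418). The probe sets for tau interferon therefore disagree on its direction in VITRO embryos, and neither stands for a single gene.

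A probe set that lists LOC616977 together with 5 other interferon symbols was among the lowest of the table. It gave 0.45, 0.40 and 0.37 in VIVO and 0.62, 0.49 and 0.43 in VITRO, with overlap between the groups, and was not tested.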
